A study of Mus musculus with 4 samples.

Results

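Regulatory T (Treg) cells hold back immune responses, and most of them carry the transcription factor Foxp3 together with CD25, which gives the receptor for interleukin 2 its high affinity. The 10 genes described here, Cyp4f18, Gata1, Ntn4, Gsta4, Ppm1l, Prkar1b, Drc1, Arhgap20, Capn3 and Plagl1, were chosen by their array intensities, which are highest in the CD4+ T cells that have Foxp3 and the most CD25, the CD25hi Foxp3+ cells. They are 10 of 18193 genes on the array with a probe set assigned to exactly 1 gene, and they have 22 of the 34945 such probe sets. Since the values reported here selected the genes, the height of the genes in CD25hi Foxp3+ cells is a description and not a finding.

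Spleen and lymph node cells came from 25 pooled male mice, B6/129 F2 animals aged 5 to 8 weeks with green fluorescent protein (GFP) knocked in at Foxp3. All 4 sorted populations carry this knock-in allele, the Foxp3- ones too. After magnetic removal of cells bearing CD8, B220, CD11b, NK1.1 or DX5, CD4+ cells were sorted by GFP, the mark of Foxp3, and by CD25 into CD25- Foxp3-, CD25+ Foxp3-, CD25lo Foxp3+ and CD25hi Foxp3+ cells. Each population was hybridised to 1 Affymetrix Mouse Genome 430 2.0 array, a chip that reads a transcript through probe sets of short oligonucleotides. No population therefore had replicates, no difference below carries a test, and the number of arrays limits the precision. Because 1 pool of animals gave all 4 samples, they share their source.

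The columns had a common scale, with median intensities between 15.03 and 15.63. Intensities under 10.1, the 40th percentile of all values, were set to that floor. A gene counted as measured when a probe set reached 32.5, the 60th percentile, in at least 1 array. That left 9625 measured genes, each read from its brightest probe set. The sort marks followed the labels for Foxp3, which read 1308 in CD25hi Foxp3+ and 1117 in CD25lo Foxp3+ cells and no more than 17.6 in the Foxp3- cells. The T cell genes Cd3e and Cd4 were well above the filter in all 4 arrays, between 497 and 837 for Cd3e and between 2434 and 2948 for Cd4. All 13 listed Treg genes exceeded their CD25- Foxp3- reading by 2-fold or more in the CD25hi Foxp3+ array, against 7.09% of measured genes. All 13 did so in the CD25lo Foxp3+ array too, against 9.1%, and 9 of them in the CD25+ Foxp3- array, against 12.1%.

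The 10 genes come from unrelated families. Cyp4f18, Gsta4 and Capn3 encode enzymes, a fatty acid hydroxylase, a glutathione transferase and a calcium-dependent protease. Ppm1l, Prkar1b and Arhgap20 act in intracellular signalling, as a protein phosphatase, a regulatory subunit of the cyclic AMP-dependent kinase PKA and a GTPase-activating protein. Gata1 and Plagl1 are zinc finger transcription factors. Ntn4 is a secreted matrix protein, and Drc1 is a structural protein of motile cilia. Several of them are best known outside lymphocytes, Gata1 from red cell and megakaryocyte development, Capn3 from skeletal muscle, Prkar1b from neurons and Drc1 from cilia and sperm tails.

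All 10 genes passed the filter, 2 of them, Prkar1b and Drc1, through the CD25hi Foxp3+ array alone. For 6 genes every array reached the filter intensity. By the size rule used here a gene stood out when its CD25hi Foxp3+ value was at least 2-fold above the highest of the other 3 arrays. All 10 did so, as they were chosen to, while 0.592% of measured genes (57 of 9625) did. With the mean over probe sets or the probe set of lowest mean in use 9 did, all but Plagl1, and without probe sets ending in _s_at or _x_at 8 did. The gap between CD25hi Foxp3+ and the next array ran from 3.42-fold to 19.6-fold with a median of 4.83-fold. Ranked by this gap the genes held places 1 to 3, 5 to 9, 19 and 20 among the 9625, with Il2ra in place 4. Standing out in this sense was least common for CD25hi Foxp3+ cells. The share of measured genes was 1.05% for CD25lo Foxp3+, 1.54% for CD25- Foxp3- and 3.26% for CD25+ Foxp3- cells. In bulk samples such as these, fewer cells that express a gene and less RNA of it per cell cannot be told apart.

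**Figure D1:**
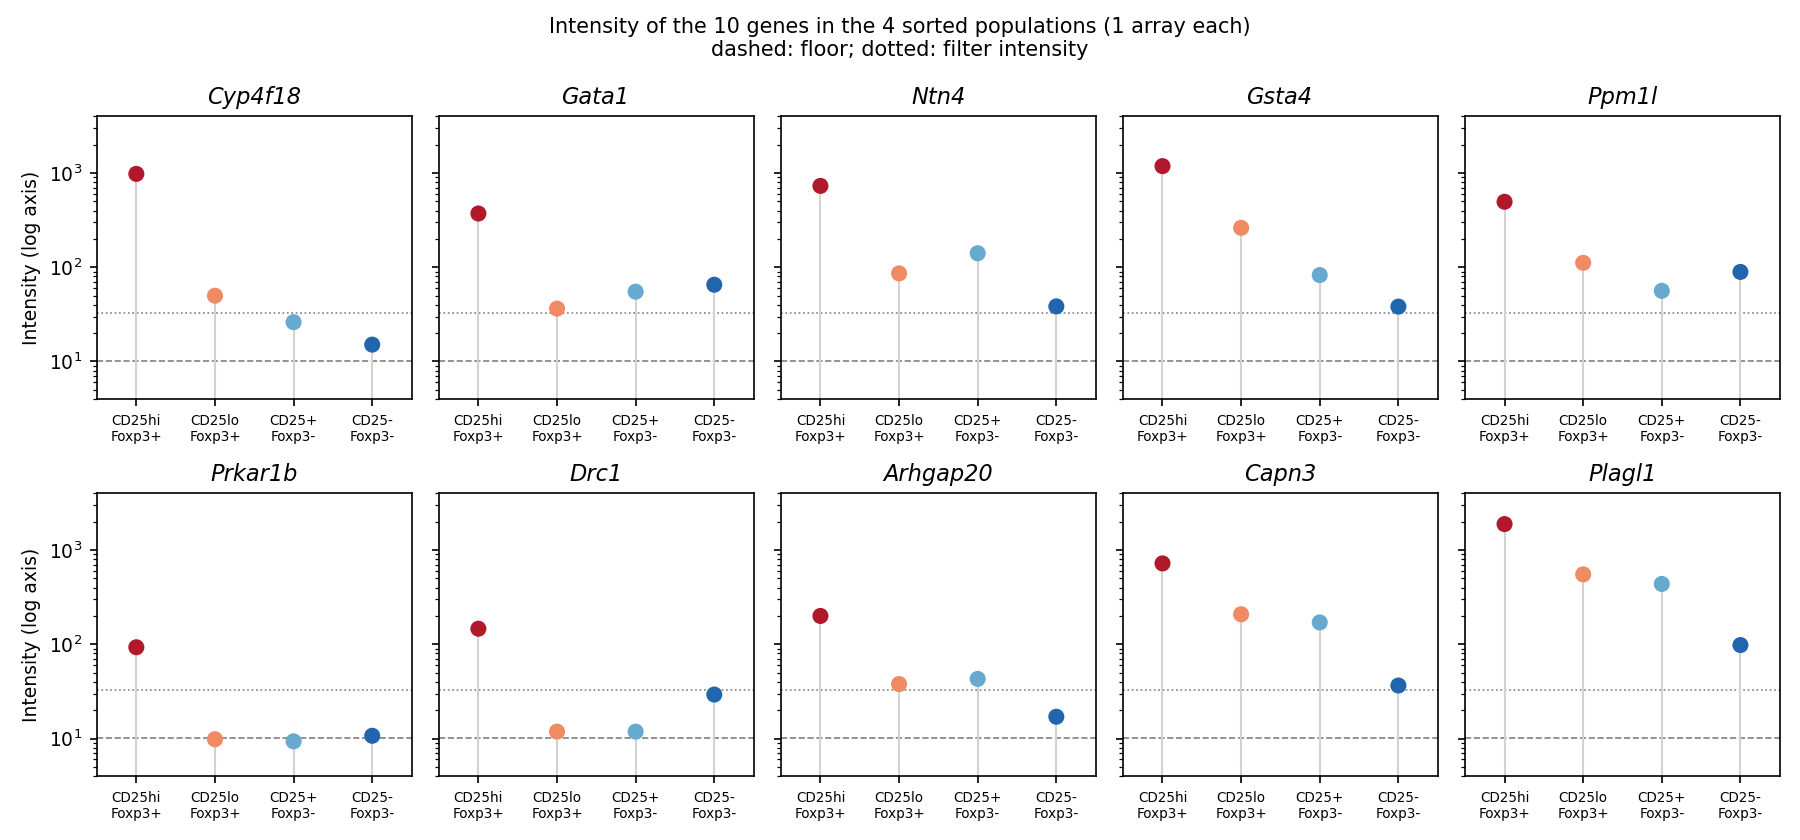
Intensity (log axis) of each of the 10 genes in the 4 sorted populations, 1 array each, read from the probe set used for the gene; the dashed line is the floor of 10.1 and the dotted line the filter intensity of 32.5. CD25hi Foxp3+ is highest in every panel, while the order of the other 3 populations differs from gene to gene.

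**Figure D2:**
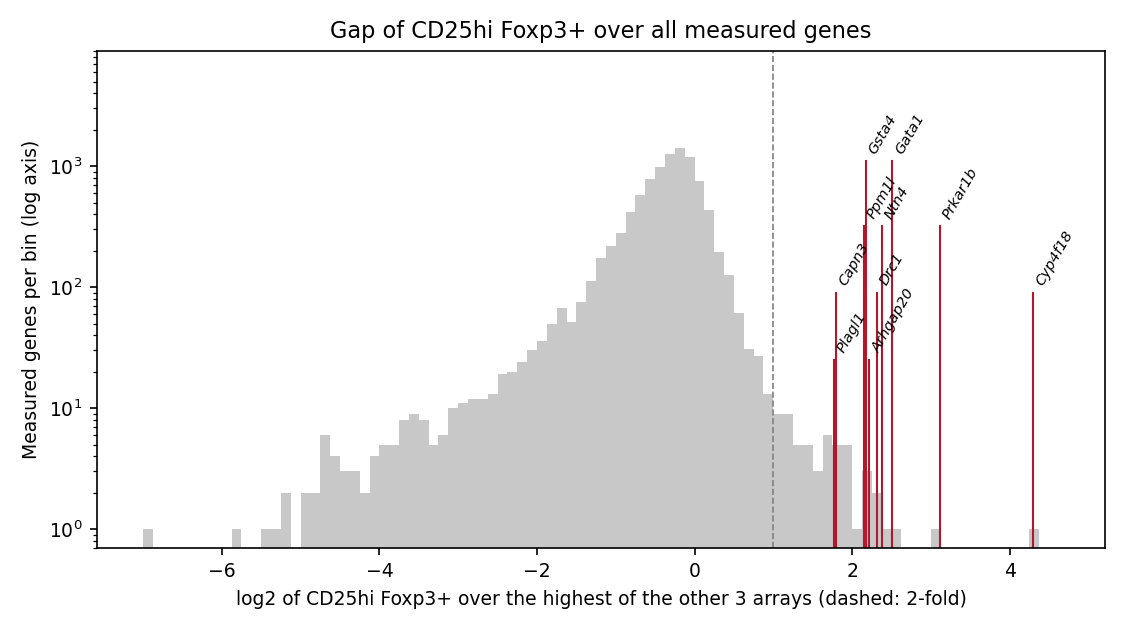
Number of measured genes (log axis) by the log2 gap of CD25hi Foxp3+ over the highest of the other 3 arrays, with the 10 genes marked in red and 2-fold shown by the dashed line. Most genes lie below 0 because another array is highest; the 10 genes lie between 1.77 and 4.30, as they were chosen to.

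Among the enzymes, Cyp4f18 had the widest gap of all measured genes. Cyp4f18 belongs to a cytochrome P450 family known for breaking down the chemoattractant leukotriene B4. Its probe set 1419219_at read 980 in CD25hi Foxp3+, 49.9 in CD25lo Foxp3+, 26.1 in CD25+ Foxp3- cells and 15.1 in the CD25- Foxp3- ones. The 2 Foxp3- readings lie under the filter intensity, so only the Foxp3+ pair had a clear signal, and CD25hi was 19.6-fold above CD25lo. A second probe set was under the floor in all 4 arrays. Of the other CYP4 and leukotriene genes listed, 7 of 18 with a probe set were measured and none stood out in CD25hi Foxp3+ cells. Lta4h, whose enzyme makes leukotriene B4, read 4414 in CD25hi Foxp3+ cells and between 2829 and 3336 elsewhere. The family member Cyp4f13 read 85.7 in CD25hi Foxp3+, 44.8 in CD25lo Foxp3+, 54.1 in CD25+ Foxp3- cells and 109 in the CD25- Foxp3- ones. Cyp4f16 read 17.3, 26.4, 83.5 and 49.3 in that order, lowest in CD25hi Foxp3+ cells. Alox5ap, which feeds the pathway its substrate, was lowest in CD25hi Foxp3+ cells at 34.4 against 115 in CD25- Foxp3- cells, and the leukotriene receptor Cysltr1 was highest in CD25+ Foxp3- cells at 138.

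Gsta4, which joins glutathione to reactive aldehydes from oxidised lipids, was graded across the 4 populations. It read 1184 in CD25hi Foxp3+, 262 in CD25lo Foxp3+, 82.6 in CD25+ Foxp3- cells and 38.2 in the CD25- Foxp3- ones, on its single probe set 1416368_at. Each step was at least 2-fold, 4.52-fold between the Foxp3+ pair, 3.17-fold from CD25lo Foxp3+ to CD25+ Foxp3- and 2.16-fold between the Foxp3- pair. Among 17 measured genes of glutathione metabolism and defence against electrophiles none stood out. Against CD25- Foxp3- cells 1 gene was 2-fold or more above and none as far below in the CD25hi Foxp3+ array. It was Gsto1, an omega-class transferase, which read 464 in CD25hi Foxp3+, 210 in CD25lo Foxp3+, 298 in CD25+ Foxp3- cells and 88.3 in the CD25- Foxp3- ones. Mgst2 was highest in CD25hi Foxp3+ cells too, at 1336 against 858 in CD25lo Foxp3+ cells, while the abundant Gstp1 differed little, between 4663 and 5263. Txnrd1 (thioredoxin reductase) was highest in CD25+ Foxp3- cells, at 1090.

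Capn3, the muscle calpain, had 3 levels. It read 723 in CD25hi Foxp3+, 209 in CD25lo Foxp3+, 171 in CD25+ Foxp3- cells and 36.6 in the CD25- Foxp3- ones on 1426043_a_at. The middle pair lay within 1.22-fold of each other, well above CD25- Foxp3- cells and well below CD25hi Foxp3+ cells. A second probe set, 1433681_x_at, gave 498, 195, 142 and 53.7 in the same order of populations. The gap of CD25hi Foxp3+ was 3.47-fold by the first and 2.56-fold by the second. Of 7 measured members of the family, calpastatin included, none was 2-fold apart between CD25hi Foxp3+ and CD25- Foxp3- cells. Capns1, the common small subunit, read 1324 in CD25hi Foxp3+ and between 1112 and 1732 in the other arrays, Capn2 read 1453 against 740 to 1499, Capn1 342 against 178 to 278 and Capn15 706 against 424 to 940.3.

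The signalling genes showed less order outside CD25hi Foxp3+ cells. Ppm1l, a phosphatase of the metal-dependent PPM family that acts on stress kinase pathways, was read by 3 probe sets that all passed the filter. The one used, 1435787_at, read 495 in CD25hi Foxp3+, 111 in CD25lo Foxp3+, 56.2 in CD25+ Foxp3- cells and 89.2 in the CD25- Foxp3- ones. The other probe sets gave 113 and 121 for CD25hi Foxp3+ and at most 19.6 for the rest. The gaps over the next array were thus 4.45-fold, 6.68-fold and 6.17-fold, and CD25lo Foxp3+ was the next array in each. In the Foxp3- pair CD25- was above CD25+ by the brightest probe set. The other probe sets read 14.3 and 10.8 in CD25+ Foxp3- cells, under the filter intensity. They were under the floor in CD25- Foxp3- cells, so they give no firm order. Of 15 other measured PPM phosphatase genes none stood out in CD25hi Foxp3+ cells. Ppm1b read 3311 in CD25hi Foxp3+, 2573 in CD25lo Foxp3+, 1430 in CD25+ Foxp3- cells and 2676 in the CD25- Foxp3- ones. The Akt phosphatase gene Phlpp1 was 2-fold apart between CD25hi Foxp3+ and CD25- Foxp3- cells, at 447 against 221, and higher still in CD25lo Foxp3+ cells, at 643. Ppm1j and Ppm1m had their lowest readings in CD25+ Foxp3- cells, at 64.6 and 812.

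Prkar1b reached the filter intensity in CD25hi Foxp3+ cells alone. Probe set 1434325_x_at read 93.2 there, 9.84 in CD25lo Foxp3+, 9.35 in CD25+ Foxp3- cells and 10.7 in the CD25- Foxp3- ones. The 3 low readings are at or next to the floor, so they have no order, and CD25hi Foxp3+ was at least 9.21-fold above the CD25lo Foxp3+ and CD25+ Foxp3- arrays. The 5 probe sets of this gene differed among themselves. A second one, 1440132_s_at, gave 41.7 for CD25hi Foxp3+ and at most 10.7 for the rest. The other 3 stayed under the filter intensity, and of these 1416753_at read 22.3 in CD25hi Foxp3+ cells and under the floor elsewhere, while 1440133_x_at read between 14.1 and 17.9 with no gap. Both probe sets that passed the filter have names ending in _x_at or _s_at, which Affymetrix gives to sets whose probes can match other transcripts. Prkar1a, the widespread subunit of the same type, read 3743 in CD25hi Foxp3+ cells and between 3361 and 4297 in the others. Among 19 measured genes of PKA subunits, inhibitors and anchoring proteins none stood out. With CD25- Foxp3- cells as the base, 1 was up by 2-fold or more in CD25hi Foxp3+ cells, the anchoring gene Akap7 at 42.9 against 18.4. As far down were 2, Pkib and the anchoring gene Akap12, the latter at 72.4 against 185. The inhibitor gene Pkib was high only in CD25- Foxp3- cells, at 44.1 against 10.5 to 13.1 elsewhere. Akap5, another anchoring gene, read 43.0 in CD25hi Foxp3+, 23.5 in CD25lo Foxp3+, 20.2 in CD25+ Foxp3- cells and 84.2 in the CD25- Foxp3- ones, less than 2-fold apart between the first and the last. Pkig, another inhibitor gene, was highest in CD25+ Foxp3- cells at 97.5.

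Arhgap20, a GTPase-activating protein regulated by Rap1, was read by 2 probe sets with nearly the same gap, 4.66-fold and 4.69-fold. On 1427522_at it read 200.1 in CD25hi Foxp3+, 37.9 in CD25lo Foxp3+, 43.0 in CD25+ Foxp3- cells and 17.1 in the CD25- Foxp3- ones. On 1429918_at it read 114, 18.1, 24.2 and 12.3 in that order. CD25+ Foxp3- cells came second on both, by a margin of 1.13-fold and 1.34-fold over CD25lo Foxp3+ cells.

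Of the transcription factors, Gata1 was not graded with the sort marks outside CD25hi Foxp3+ cells. Gata1 opens the programme of red cells and megakaryocytes and is also used by mast cells and eosinophils. Its single probe set, 1449232_at, read 372 in CD25hi Foxp3+, 36.4 in CD25lo Foxp3+, 55.0 in CD25+ Foxp3- cells and 65.3 in the CD25- Foxp3- ones. CD25lo Foxp3+ cells were thus lowest, 10.2-fold below CD25hi Foxp3+ cells, and CD25- Foxp3- cells second, 5.70-fold below. Of 7 measured GATA factors and partners none stood out in CD25hi Foxp3+ cells. Zfpm1 (FOG-1) read 69.5 in CD25hi Foxp3+, 60.3 in CD25lo Foxp3+, 135 in CD25+ Foxp3- cells and 121 in the CD25- Foxp3- ones. Tal1 and Lmo2 read 9.54 and 12.2 in CD25hi Foxp3+ cells against 34.2 and 38.9 in CD25- Foxp3- cells, and Klf1 read 14.0 against 107. Ldb1, which bridges the complex, was highest in CD25hi Foxp3+ cells at 1473, with 1239 in CD25- Foxp3- cells next. Gata3, the T cell member of the family, read 760 in CD25hi Foxp3+, 966 in CD25lo Foxp3+, 566 in CD25+ Foxp3- cells and 426 in the CD25- Foxp3- ones.

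Gata1 is best known from cells whose other genes were listed too. Of 12 red cell genes with a probe set none was highest in CD25hi Foxp3+ cells. Their summed intensity was 1611 in CD25hi Foxp3+, 1562 in CD25lo Foxp3+, 3829 in CD25+ Foxp3- cells and 2248 in the CD25- Foxp3- ones, with Tfrc, the transferrin receptor that dividing T cells express as well, giving 1337, 1004, 1951 and 1043 of these. Alas2, the first enzyme of haem synthesis in red cells, read 17.1 in CD25hi Foxp3+ against 99.1 in CD25- Foxp3- cells, and Car1 read 27.1 against 416. All 10 megakaryocyte and platelet genes with a probe set were under the filter in all arrays, and their sums lay between 72.2 and 75.2. For 14 genes of mast cells, basophils and eosinophils the sum was 122 in CD25hi Foxp3+ cells, the lowest of the 4, and the highest, 570, was in CD25+ Foxp3- cells, where Kit read 399. None of the 14 reached the filter in CD25hi Foxp3+ cells.

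**Figure D3:**
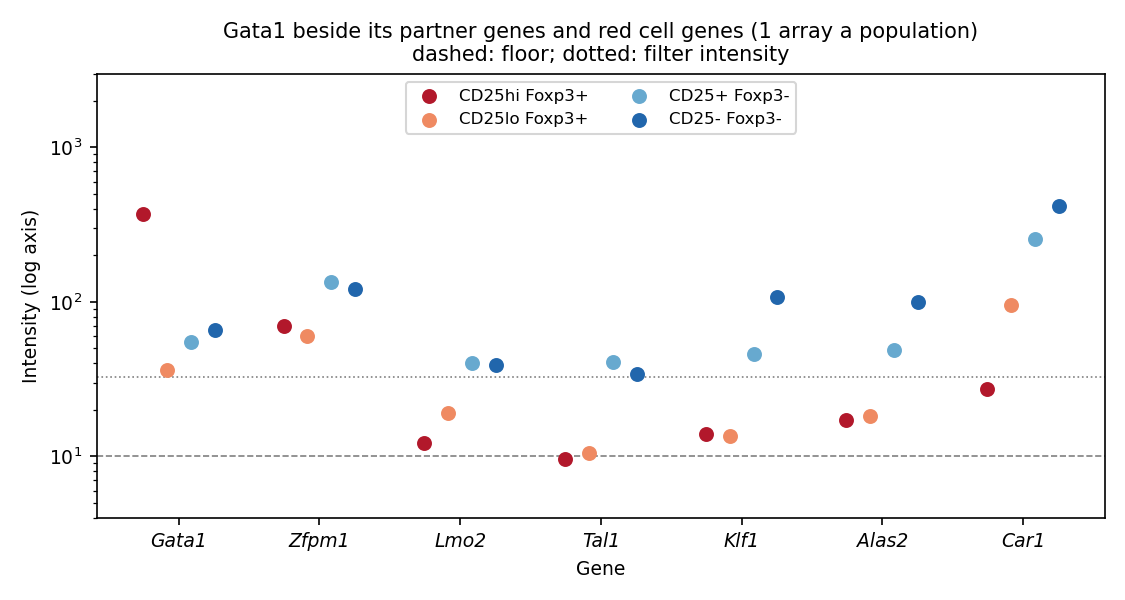
Intensity (log axis) of Gata1, of 4 genes of its partner factors and of 2 red cell genes in the 4 populations, coloured by population, 1 array each; the dashed line is the floor and the dotted line the filter intensity. Gata1 is highest in CD25hi Foxp3+ cells at 372, and the 6 others, picked from the lists after their values were seen, are higher in CD25- Foxp3- than in CD25hi Foxp3+ cells; Ldb1, Gata3 and Tfrc, not drawn, are the other way round.

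Gata1 lies on the X chromosome, as does Foxp3, with 27 genes between them in the RefSeq order of assembly GRCm38.p6. Of these, 14 were measured and none stood out in CD25hi Foxp3+ cells. The nearest measured gene to Gata1 on that side, Hdac6, read 422 in CD25hi Foxp3+, 218 in CD25lo Foxp3+, 238 in CD25+ Foxp3- cells and 190.0 in the CD25- Foxp3- ones. Its log2 gap of 0.83 was the largest among the 14, against 2.51 for Gata1.

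Since a GATA factor is among the 10 genes, the stretch before the start sites of these genes was searched for the GATA letters AGATAA on both strands. RefSeq (GRCm38.p6) start sites were given for 8 of the 10, with 13 windows of 250 bases, 2 for Capn3 and 5 for Prkar1b. Gsta4 and Ppm1l had none. A match lay before 1 start of Capn3 and before Cyp4f18, 2 of 13 windows, while 9.99% of all 32851 windows held one. The 2 windows with a match and that of Gata1, which has none, are shown because they bear on this question, with the matched letters in capitals, all 5′ to 3′ on the gene's strand. They are chr8:72009627-72009876 on the minus strand, chr2:120476659-120476908 on the plus strand and chrX:7967911-7968160 on the minus strand. Capitals mark the letters TTATCT, the reverse complement of the motif.
Cyp4f18: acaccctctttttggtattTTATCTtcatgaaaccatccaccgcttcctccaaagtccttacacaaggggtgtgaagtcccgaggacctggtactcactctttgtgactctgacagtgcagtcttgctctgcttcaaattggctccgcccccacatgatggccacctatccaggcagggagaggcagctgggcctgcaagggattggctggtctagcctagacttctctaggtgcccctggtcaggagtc
Capn3: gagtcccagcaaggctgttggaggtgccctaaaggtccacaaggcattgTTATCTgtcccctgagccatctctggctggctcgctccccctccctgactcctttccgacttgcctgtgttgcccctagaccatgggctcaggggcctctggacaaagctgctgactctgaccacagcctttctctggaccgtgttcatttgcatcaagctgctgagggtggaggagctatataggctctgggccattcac
Gata1: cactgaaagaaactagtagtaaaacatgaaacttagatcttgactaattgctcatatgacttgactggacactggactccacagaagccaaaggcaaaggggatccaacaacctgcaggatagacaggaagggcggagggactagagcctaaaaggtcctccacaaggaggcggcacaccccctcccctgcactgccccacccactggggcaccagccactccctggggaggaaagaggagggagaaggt
The matches begin 231 bases before the start in Cyp4f18 and 201 in Capn3, within the 250 bases searched. The STAT5 letters TTCNNNGAA are of interest because the receptor for interleukin 2, which CD25 is a part of, signals through STAT5. They were in none of the 13 windows and in 7.02% of all, and the forkhead letters GTAAACA were in none and in 3.17% of all. The AP-1 letters TGANTCA were in 1 window, that of Drc1, and in 6.75% of all. The NFAT letters GGAAAA were in 3 windows, 1 of Capn3 and 2 overlapping windows of Prkar1b, and in 20.4% of all. These are matches of letters only, and no binding was measured.

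Plagl1, a growth-restraining zinc finger factor expressed from the paternal allele in many tissues, resembled Capn3. On 1426208_x_at it read 1890 in CD25hi Foxp3+, 553 in CD25lo Foxp3+, 438 in CD25+ Foxp3- cells and 98.2 in the CD25- Foxp3- ones. Its folds of CD25hi Foxp3+ over the other populations, 3.42, 4.32 and 19.2, lay close to those of Capn3, which were 3.47, 4.23 and 19.8. The probe sets of Plagl1 did not concur on the height of CD25hi Foxp3+ cells. A fainter one, 1438588_at, read 40.9 in CD25hi Foxp3+, 47.2 in CD25lo Foxp3+, 30.02 in CD25+ Foxp3- cells and 10.7 in the CD25- Foxp3- ones, so that CD25lo Foxp3+ was highest. The third was under the floor throughout. Both that passed the filter were lowest in CD25- Foxp3- cells. Without probe sets ending in _s_at or _x_at the gap of Plagl1 was -0.20 on the log2 scale in place of 1.77. That alternative, chosen after the values were seen, also left Prkar1b unmeasured.

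Among 6 measured genes of the PLAG family and of the imprinted gene network around Plagl1, 1 stood out. This was Igf2r, an imprinted receptor that clears the growth factor IGF2. Igf2r read 2141 in CD25hi Foxp3+, 1041 in CD25lo Foxp3+, 680 in CD25+ Foxp3- cells and 843 in the CD25- Foxp3- ones, a gap of 2.06-fold. With the mean over probe sets or the probe set of lowest mean Igf2r did not stand out. Plagl2, the close relative of Plagl1, read 308 in CD25hi Foxp3+, 212 in CD25lo Foxp3+, 328 in CD25+ Foxp3- cells and 162 in the CD25- Foxp3- ones. Impact was highest in CD25- Foxp3- cells at 365. Gnas read between 7236 and 8267. The other 22 listed genes, among them Igf2, H19 and Cdkn1c, were not measured.

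Ntn4 encodes netrin-4, a laminin-related protein of basement membranes. Probe set 1439794_at read 730.1 in CD25hi Foxp3+, 86.0 in CD25lo Foxp3+, 141 in CD25+ Foxp3- cells and 38.4 in the CD25- Foxp3- ones. CD25+ Foxp3- cells came second, 1.64-fold above CD25lo Foxp3+ cells, and CD25- Foxp3- cells were lowest. A fainter probe set, 1450512_at, read 33.6 in CD25hi Foxp3+ cells and was under the floor in the other 3, at least 3.32-fold lower. Of 20 netrins, netrin receptors and related genes with a probe set 5 were measured and none stood out. Lamc1, a laminin chain of basement membranes, was far apart between the Foxp3+ and the Foxp3- arrays, with 164 in CD25hi Foxp3+, 118 in CD25lo Foxp3+, 21.0 in CD25+ Foxp3- cells and 12.6 in the CD25- Foxp3- ones. Ntn1 read 30.5, 36.7, 18.3 and 12.1 in that order. Dscam was highest in CD25+ Foxp3- cells, at 36.7. The laminin-binding integrin chain Itga6 read 1980 in CD25hi Foxp3+ and 1778 in CD25lo Foxp3+ cells.

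Drc1, a part of the nexin link between microtubule doublets of motile cilia, read 147 in CD25hi Foxp3+, 11.8 in CD25lo Foxp3+, 11.9 in CD25+ Foxp3- cells and 29.3 in the CD25- Foxp3- ones on its single probe set 1455279_at. As for Gata1, CD25- Foxp3- cells were second and CD25lo Foxp3+ cells were not above any other. All 3 lower readings were under the filter intensity, so the size of the folds, 5.00 over CD25- Foxp3- and 12.4 over CD25lo Foxp3+ cells, is uncertain. Of 27 listed genes of motile cilia with a probe set 5 were measured, none stood out and none was 2-fold apart between CD25hi Foxp3+ and CD25- Foxp3- cells. Gas8, another part of the same complex, read 97.0 in CD25hi Foxp3+ and between 49.0 and 89.1 in the others. Lrrc23 was low only in CD25+ Foxp3- cells, at 15.4 against 57.0 in CD25hi Foxp3+ cells. Rsph1 was highest in CD25lo Foxp3+ cells at 38.9 and Iqcd read 38.2 in CD25hi Foxp3+ cells. Foxj1, the master factor of motile cilia, was not measured.

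Across the 10 family and pathway lists 118 genes other than the 10 were measured, and 1 of them, Igf2r, stood out in CD25hi Foxp3+ cells, 0.847% against 0.592% of all measured genes. The highest array was CD25hi Foxp3+ for 25 of the 118, CD25lo Foxp3+ for 25, CD25+ Foxp3- for 32 and CD25- Foxp3- for 36. With CD25- Foxp3- cells as the base, 7 of them were up and 8 down by 2-fold or more in CD25hi Foxp3+ cells, where the shares of all measured genes were 7.09% and 3.74%. The lists were drawn up with the 10 genes known and serve only to set each one beside its relatives.

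For 6 of the 10 genes several probe sets passed the filter, and in 5 of the 6 every one of them stood out in CD25hi Foxp3+ cells, the exception being Plagl1. Yet the further probe sets of Ntn4, Ppm1l, Prkar1b and Arhgap20 that passed did so through the CD25hi Foxp3+ array alone. The filter thus largely fixed that they stand out. Only Capn3 and Plagl1 had a further probe set above the filter in another array, and that of Plagl1 did not stand out. The share was 71.4% over all genes with several probe sets above the filter that stood out in this array (15 of 21), the 6 included. It was 50% in CD25lo Foxp3+ (11 of 22), 45.4% in CD25+ Foxp3- (49 of 108) and 31.8% in CD25- Foxp3- cells (14 of 44). Of all 22 probe sets 17 passed the filter and 16 of the 17 stood out. The other 5 stayed under the filter, 3 of them under the floor in all 4 arrays.

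**Figure D4:**
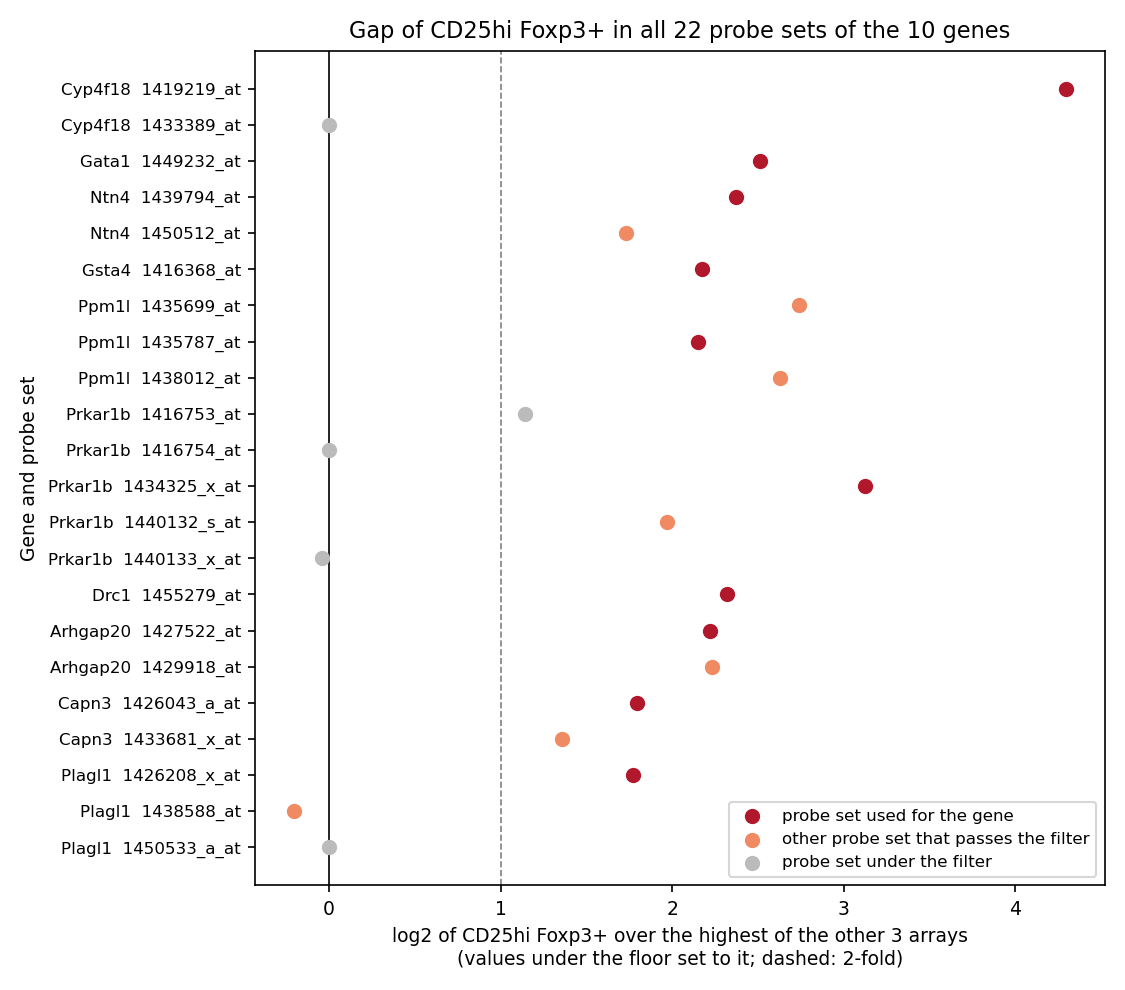
Log2 gap of CD25hi Foxp3+ over the highest of the other 3 arrays for all 22 probe sets of the 10 genes, coloured by use, with 2-fold shown by the dashed line. Of the 17 that pass the filter 16 lie beyond 2-fold, several of them having passed through CD25hi Foxp3+ alone, and the fainter Plagl1 probe set lies at -0.20.

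The readings of the 10 genes in the other 3 populations were not fixed by their choice as high in CD25hi Foxp3+ cells, apart from an upper bound. Prkar1b and Drc1 were under the filter intensity in all 3, having passed through CD25hi Foxp3+ alone, so counts over the 10 are not like for like with all measured genes, whose shares are given for scale. A 2-fold distance between the highest and the lowest of these 3 arrays was met by 7 of 10, faint Drc1 included. Of measured genes 29.6% met it, and under other processing at 2-fold the count of the 10 ran from 5 to 8. CD25lo Foxp3+ cells were at least 2-fold above CD25- Foxp3- cells for 6 genes, Capn3, Plagl1, Gsta4, Cyp4f18, Ntn4 and Arhgap20, and at least 2-fold below for Drc1, on readings under the filter. The shares of measured genes were 9.1% and 6.88%. CD25+ Foxp3- cells were at least 2-fold above CD25- Foxp3- cells for 5 genes, the same ones without Cyp4f18, with Drc1 again below on readings under the filter, where the shares of measured genes were 12.1% and 6.43%. The CD25- Foxp3- readings of Cyp4f18 and Arhgap20, 15.1 and 17.1, were under the filter intensity, so their folds are uncertain in size. On its other probe set Arhgap20 met none of these counts. CD25lo Foxp3+ was 1.47-fold and CD25+ Foxp3- 1.97-fold above CD25- Foxp3- cells there. These 2 comparisons share the CD25- Foxp3- array. The median log2 difference of the 10 genes was 1.16 in the first and 0.95 in the second, with the same limit, and that of all measured genes was -0.05 and -0.01.

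CD25lo Foxp3+ and CD25+ Foxp3- cells differed plainly in Foxp3, 1117 against 16.8, and little in the CD25 gene Il2ra on its brightest probe set, 288 against 283. The fainter Il2ra probe set read 84.2 against 114. Between these populations Gsta4 was 3.17-fold higher in CD25lo Foxp3+ cells, and no gene of the 10 was at least 2-fold lower, where the shares of measured genes were 5.17% and 9.04%. Another 7 genes were within 2-fold. Prkar1b and Drc1 allow no comparison here, as both arrays were at the floor or under the filter. Next below CD25hi Foxp3+ came CD25lo Foxp3+ for 5 genes, CD25- Foxp3- for 3 and CD25+ Foxp3- for 2. One of the 3, Prkar1b, rests on readings at the floor. Over all 57 genes that stood out, 2 of them tied at the floor, CD25lo Foxp3+ came next in 58.2% of the other 55.

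**Figure D5:**
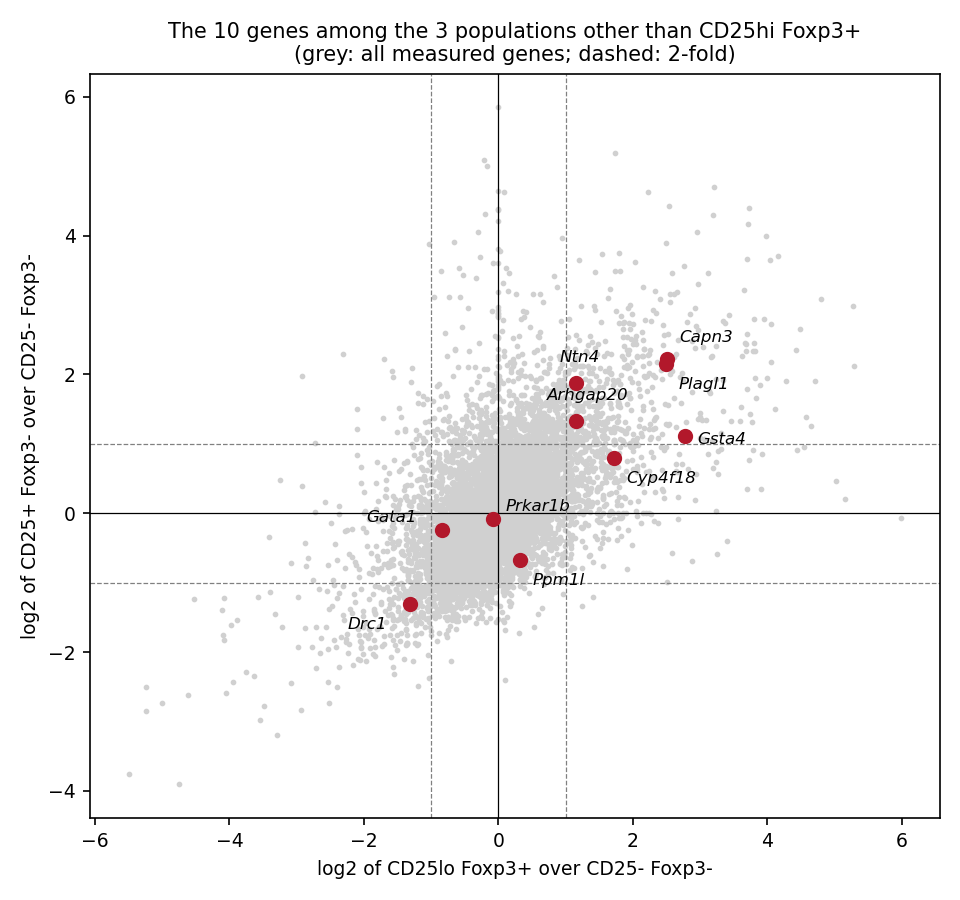
Log2 of CD25lo Foxp3+ over CD25- Foxp3- (horizontal) against log2 of CD25+ Foxp3- over CD25- Foxp3- (vertical) for all measured genes in grey and the 10 genes in red, with 2-fold shown by dashed lines; both axes share the CD25- Foxp3- array. Capn3 and Plagl1 lie together at the upper right, Gsta4 farthest to the right, Gata1, Prkar1b and Ppm1l within 2-fold on both axes and Drc1 at the lower left.

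The genes outside the 10 most like them, by the same gap, were led by Il2ra, the gene for the sort mark CD25. Il2ra read 1562 in CD25hi Foxp3+, 288 in CD25lo Foxp3+, 283 in CD25+ Foxp3- cells and 22.3 in the CD25- Foxp3- ones. The gap was 5.42-fold, and the order on this brightest probe set was like that of Capn3 and Plagl1. The fainter Il2ra probe set read 417, 84.2, 114 and 9.56 for the same populations in turn. There CD25+ Foxp3- cells came second, above CD25lo Foxp3+ cells, and the CD25- Foxp3- reading was under the floor. Il2ra was followed by Eno3, the muscle form of the glycolytic enzyme enolase. Eno3 read 1973 in CD25hi Foxp3+ and between 385 and 475 in the other arrays, a gap of 4.15-fold. Hepacam2 read 38.8 and was under the floor elsewhere, a gap of at least 3.84-fold. The potassium channel gene Kcnh2, Gpld1 and Rragd, a GTPase of the nutrient-sensing pathway, had gaps of 3.76-fold, 3.75-fold and 3.73-fold. Ecm1 read 974 against 203 to 263, a gap of 3.70-fold. The transporter gene Slc22a2, the tubulin gene Tubb2b and Tlr7, a sensor of single-stranded RNA, had gaps of 3.58-fold, 3.52-fold and 3.48-fold. Of the Treg list 2 of 13 stood out by the same rule, Gpr83, with 4426 against 1350 in CD25lo Foxp3+ cells, and Il2rb, with 1053 against 459.

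Markers of other cells were read in the same arrays. None of 17 myeloid and dendritic cell genes with a probe set was highest in CD25hi Foxp3+ cells, and their summed intensity was 303 there, 627 in CD25lo Foxp3+, 657 in CD25+ Foxp3- cells and 1043 in the CD25- Foxp3- ones. Csf1r and Lyz2 read 57.8 and 27.8 in CD25hi Foxp3+ cells. For 9 B cell genes the sums were 179, 239, 292 and 317 in the same order, although Cd79b read 97.2 in CD25hi Foxp3+ and 118 in CD25lo Foxp3+ cells against 58.4 and 69.2 in the Foxp3- ones. For 8 genes of CD8 T and NK cells they were 441, 399, 1358 and 1860, with Cd8b1 at 145 in CD25hi Foxp3+ cells. Of 10 epithelial genes Epcam alone was measured, with 321 in CD25hi Foxp3+, 292 in CD25lo Foxp3+, 56.7 in CD25+ Foxp3- cells and 38.2 in the CD25- Foxp3- ones, while the keratins Krt5, Krt8, Krt14, Krt18 and Krt19 were under the filter in all arrays. What part these cells have in the readings of the 10 genes was not tested.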

How the data were processed

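The authors deposited 1 intensity per probe set and array on a linear scale, as read from the values; for probe summarisation and normalization, the method was not given in the sources used here. Per the labels, RNA went through 2 cycles of in vitro amplification. The platform annotation named the genes: 34945 had exactly 1 gene, 932 several and 9160 none listed, and 64 controls were left out. By Entrez identifier 34741 matched the RefSeq table of GRCm38.p6, and no symbol changed. Values under the 40th percentile were set to it, probe sets whose highest value missed the 60th percentile were left out, and a gene was read from the probe set with the highest mean log2 intensity. With 1 array a population there is no test; a gene counts at 2-fold. Folds against an array at the floor are lower bounds, written as at least, and folds against readings under the filter are uncertain in size. The counting rule was run on simulated data with an assumed spread that was not estimated from these arrays. That run does not show how reliable the rule is here.

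The 10 genes, the lists and the size rules were chosen with earlier results of these data known. The result of 1 of the 10 family and pathway lists is not reported here on its own, though its genes are in the totals over all lists. Text names the 10 genes, Foxp3, Il2ra, the 10 other genes with the widest gap, and from each list those that stand out, the brightest and up to 3 that differ most between arrays; marker genes include up to 3 of the brightest per list. Genes named beyond this, such as Cyp4f13, Alas2, Krt5, Hdac6 and the other PKA and calpain genes, were chosen after their values were seen. Work was done in Python 3.11.15 with pandas 2.3.3 and numpy 2.4.6.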

Additional observations from a re-analysis of the deposited data

Results flagged for a closer look

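For Drc1, Gata1 and Ppm1l a difference between a pair of arrays had the opposite sign in another pair, each past 1.5-fold. The share of all measured genes that did so was not counted, so how unusual this is remains unknown. These differences were not tested, since each rests on 4 single arrays, and the positive side of each follows from how the genes were chosen. Within Foxp3+ cells Drc1 was higher in CD25hi than in CD25lo by 3.63 on the log2 scale, while CD25+ minus CD25- within Foxp3- cells was -1.31. Drc1 also differed by 3.63 from CD25+ Foxp3- to CD25hi Foxp3+ cells and by -1.31 from CD25- Foxp3- to CD25lo Foxp3+ cells, although all readings but the highest were under the filter intensity. Gata1 differed by 2.76 and -0.84 over the same pairs. Neither of these pairs isolates Foxp3, since the CD25 gene Il2ra read 1562 against 283 in the former and 288 against 22.3 in the latter. Ppm1l had a CD25 difference of 2.15 within Foxp3+ cells and of -0.67 within Foxp3- cells, on its brightest probe set. The negative side rests on that probe set alone. The other Ppm1l probe sets read 14.3 and 10.8 in CD25+ Foxp3- cells, under the filter intensity, and were under the floor in CD25- Foxp3- cells.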

How the results depend on the processing

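With 1 array a population, the spread between samples is unknown, and values near the floor limit what can be compared. Of 109 gaps of single genes under 11 alternatives, 103 stayed within 1.5-fold, 4 were smaller by more and 2 turned. The 4 were Plagl1 at 0.78 with the mean over probe sets, under 2-fold, Ntn4 at 1.73 and Prkar1b at 1.97 with the probe set of lowest mean, and Prkar1b at 2.03 with a pseudocount of 16. Many of the 103 could hardly move. The gaps of all 10 genes were identical with the floor at the 30th percentile, no floor, no filter and the filter at the 70th percentile. The choice of probe set cannot change Cyp4f18, Gata1, Gsta4 and Drc1, which had 1 probe set above the filter. The 103 are thus no measure of how firm the gaps are. At 4-fold 8 of the 10 genes stood out. The gaps of Plagl1 turned to -0.20 both with the probe set of lowest mean and without _s_at and _x_at probe sets, the latter chosen after seeing the data. With no filter 0.352% of genes stood out in CD25hi Foxp3+ cells, and 8.90% and 10.2% were 2-fold apart between CD25lo Foxp3+ or CD25+ Foxp3- and CD25- Foxp3- cells, in place of 0.592%, 15.98% and 18.5%. At 1.5-fold these shares were 1.46%, 35.0% and 40.1%, and at 4-fold 0.104%, 3.61% and 3.42%. At 4-fold 3 genes in place of 7 were apart among the other 3 arrays, and 0 of the 2 marker genes stood out. At 2-fold the 7 became 5 with a pseudocount of 16 and with the probe set of lowest mean. It became 6 with the floor at the 50th percentile and with the mean over probe sets, and 8 with quantile normalization. Of the family and pathway genes 0 stood out at 4-fold, with the mean over probe sets and with the probe set of lowest mean, and 4 at 1.5-fold. No paired analysis was possible because each population has 1 array.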

Other observations

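Beside Foxp3 itself, its next neighbour in the RefSeq order, Ccdc22, read lower in both Foxp3+ arrays, with 57.9 in CD25hi Foxp3+, 27.7 in CD25lo Foxp3+, 231 in CD25+ Foxp3- and, at the top, 293 in CD25- Foxp3- cells. The gene was singled out after its values were seen, on the way from Foxp3 to Gata1 along the chromosome.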
